A study of Mus musculus with 9 samples.

Results

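The immunoglobulin heavy chain variable (Ighv) segments are the genes of the lung expression table whose symbol starts with Ighv and a family number. There were 125 of them among the 34638 genes of the table, 106 annotated as IG_V_gene and 19 as IG_V_pseudogene. All 125 had a count in at least 1 library, 72 had a count in all 9, and 7 never exceeded 3 counts in any library. Lung RNA came from 9 wild-type C57BL/6 mice in 3 groups of 3. The PBS mice received phosphate buffered saline. The IL-33 mice received 0.5 µg of recombinant mouse IL-33 per mouse into the trachea on each day from day 0 to day 3. The IL-33+LM8 mice received the same IL-33 challenges and an intraperitoneal injection of LM8 at 10 mg/kg before IL-33, LM8 being named in the labels as an inhibitor of MyD88. For the IL-33 model the study's methods give an age of 6 to 8 weeks and lung collection on day 4, 24 h after the last challenge, and do not describe the LM8 mice. No group received LM8 without IL-33, so an effect of LM8 by itself cannot be told apart from its effect on the IL-33 response.

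An antibody heavy chain gene is assembled in a developing B cell by V(D)J recombination, which joins 1 Ighv segment to a D and a J segment. The joined segment is transcribed with a constant region, first Ighm, so that each B cell or plasma cell lineage carries the transcript of its own chosen segment. In bulk lung RNA the Ighv counts therefore sum over many lineages, and a clone or subset that makes much antibody can raise a single segment. Fewer cells of a type and less RNA per cell cannot be told apart in such samples. Segments of the Ighv11 and Ighv12 families are known in mice from B-1a cells, a self-renewing subset of the body cavities whose IgM often binds phosphatidylcholine. IL-33 is an epithelial alarmin that signals through the receptor ST2 and the adaptor MyD88.

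The sequences of 3 segments are shown, those of the leading segment of the IL-33 mice (Ighv11-2), of a segment that rose beside it (Ighv12-3) and of the leading segment of 2 IL-33+LM8 mice (Ighv1-64), with their likeness to other segments. The sequences are the 300 bases at the 3′ end of each annotated transcript, all coding and inside the exon that holds most of the variable domain, from GENCODE M21 on GRCm38, minus strand of chromosome 12. Capitals mark the bases that differ from the most similar other Ighv segment. Ighv11-2 lies at chr12:114048241-114048540, Ighv12-3 at chr12:114366521-114366820 and Ighv1-64 at chr12:115507545-115507844.
Ighv11-2: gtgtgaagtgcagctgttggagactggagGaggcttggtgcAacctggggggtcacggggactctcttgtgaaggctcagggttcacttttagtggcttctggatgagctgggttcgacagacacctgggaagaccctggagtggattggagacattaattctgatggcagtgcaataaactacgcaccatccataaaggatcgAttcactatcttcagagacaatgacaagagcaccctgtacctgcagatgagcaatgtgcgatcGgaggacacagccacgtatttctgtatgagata
Ighv12-3: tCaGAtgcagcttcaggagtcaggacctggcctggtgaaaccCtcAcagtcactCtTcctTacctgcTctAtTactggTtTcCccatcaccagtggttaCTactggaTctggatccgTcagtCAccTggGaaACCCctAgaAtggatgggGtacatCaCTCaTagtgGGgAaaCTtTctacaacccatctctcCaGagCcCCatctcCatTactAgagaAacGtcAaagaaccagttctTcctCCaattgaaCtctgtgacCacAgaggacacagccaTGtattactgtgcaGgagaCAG
Ighv1-64: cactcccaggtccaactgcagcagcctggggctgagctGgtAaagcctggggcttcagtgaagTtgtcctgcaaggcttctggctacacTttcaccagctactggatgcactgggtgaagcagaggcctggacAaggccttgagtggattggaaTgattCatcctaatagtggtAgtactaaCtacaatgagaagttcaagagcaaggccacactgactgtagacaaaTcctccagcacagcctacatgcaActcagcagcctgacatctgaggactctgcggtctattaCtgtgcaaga
Ighv11-2 differed from its nearest neighbour Ighv11-1 at 4 of these bases (98.7% identity). Ighv12-3 differed from its nearest member, Ighv3-2, at 63 bases (79.0% identity). Ighv1-64 differed from Ighv1-72 at 12 bases (96.0% identity). No 50-base stretch of Ighv12-3 occurred in another member, whereas 50.2% of those of Ighv11-2 and 35.9% of those of Ighv1-64 did. Over all members the median identity to the nearest member was 94.7%, and 62 of 125 had a neighbour at 95% identity or more. Ighv1-62-2 and Ighv1-71, named here after their values were seen, were identical over these bases. How reads that fit several segments were counted is not given in the sources used here, so the split of counts between close relatives is uncertain.

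The summed Ighv level was over 4 times higher in IL-33 mice than in PBS mice, and most of that difference was missing in mice that also received LM8. Total counts per library ranged from 53877663 to 90607218. The summed Ighv counts of mice 1, 2 and 3 were 6539, 6094 and 7029 with PBS, 27976, 26761 and 22909 with IL-33, and 7652, 7142 and 10741 with IL-33+LM8. As CPM, the count divided by the total count of its library and scaled to the same total in each, this gave 105, 98.7 and 95.2 with PBS, 424, 447 and 425 with IL-33, and 128, 115 and 119 with IL-33+LM8. All 3 IL-33 mice lay above all others, and the 3 IL-33+LM8 mice lay just above the 3 PBS mice. The group means were 99.6 ± 5.03, 432 ± 13.2 and 121 ± 6.75 CPM (SD, n = 3). IL-33 mice held 4.34 ± 0.256 times the level of PBS mice, IL-33+LM8 mice held 0.279 ± 0.0178 of the level of IL-33 mice, and IL-33+LM8 mice held 1.21 ± 0.0912 times the level of PBS mice. The sum received no test, and with 3 mice against 3 an exact permutation test could not go below 0.1. On the sum of deposited FPKM, which scales each count by gene length, the same 3 ratios were 4.25, 0.282 and 1.20.

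**Figure D1:**
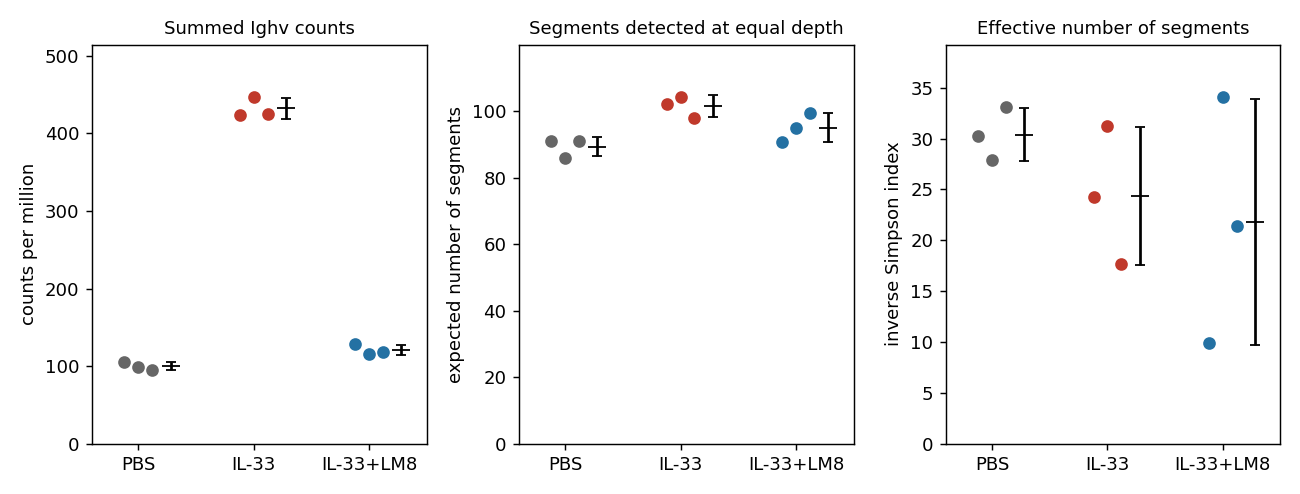
Summed Ighv CPM, expected number of segments detected in 6094 reads, and the inverse Simpson index, each as 1 point per mouse with the group mean and SD (n = 3) beside it. The sum was between 424 and 447 in IL-33 mice and at most 128 elsewhere, while the index spread from 9.88 to 34.1 within the IL-33+LM8 mice.

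The number of segments detected differed less than the sum. At least 1 count was present for 91, 86 and 91 segments in the PBS mice, 107, 109 and 103 in the IL-33 mice and 91, 95 and 100 in the IL-33+LM8 mice. Because deeper sampling finds more segments, each library was also thinned by exact expectation to the 6094 Ighv reads of the smallest one. The expected numbers were then 91.0, 86.0 and 91.0 with PBS, 102, 104 and 97.8 with IL-33, and 90.7, 94.8 and 99.5 with IL-33+LM8. The means were 89.3 ± 2.87, 101 ± 3.33 and 94.98 ± 4.38 segments (SD, n = 3). The PBS and IL-33 ranges stayed apart at equal depth, while the IL-33+LM8 range reached into both. Counting only segments with more than 3 reads gave 80 to 88, 96 to 105 and 87 to 97 segments.

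Of the 125 segments, 6 were counted in all 3 IL-33 mice and in no PBS mouse. The share of all genes with this pattern was not computed, so the number is not set against a background. Ighv2-4 had 46, 130 and 14 counts in IL-33 mice and 0 in every PBS and IL-33+LM8 mouse. Ighv11-1, the close relative of Ighv11-2, had 30, 41 and 46 counts in IL-33 mice and 0 in all others. Ighv7-4 had 50, 80 and 10 counts in IL-33 mice, 0 in PBS mice and 0, 0 and 5 in IL-33+LM8 mice. The others, named after their values were seen, had fewer counts in IL-33 mice. They were Ighv8-2 (50, 12 and 10), Ighv1-37 (12, 9 and 2) and the pseudogene Ighv1-14 (8, 2 and 2). Ighv1-37 and Ighv1-14 did not exceed 3 counts in every IL-33 mouse. Bounds on folds were taken only for segments at 0 in a whole group and above 3 counts in every mouse of the other. A high bound therefore follows in part from that choice. Set against a floor of 3 counts per PBS library, the mean IL-33 level was at least 22.8-fold higher for Ighv2-4. It was at least 16.6-fold higher for Ighv7-4 and at least 14.5-fold higher for Ighv11-1. These bounds hold for the mean only, and IL-33 mouse 3, with 14 counts of Ighv2-4 and 10 of Ighv7-4, lay nearer the floor. Without IL-33 mouse 2 the bounds were 10.4 for Ighv2-4, 10.3 for Ighv7-4 and 14.3 for Ighv11-1. Of the 50-base windows of Ighv2-4, 52.2% were shared with another member, its nearest being Ighv2-2 at 98.0% identity. Of those of Ighv11-1, 50.2% were shared, its nearest being Ighv11-2 at 98.7% identity. Whether the few Ighv11-1 counts came from reads of the far more abundant Ighv11-2 was not tested. Ighv7-4 shared none with any other member.

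The leading segment was the same in all 3 IL-33 mice and differed between mice within the PBS and the IL-33+LM8 groups. In PBS mice the leading segment was Ighv1-81 or Ighv1-9, with 8.87% of Ighv counts (Ighv1-81) in mouse 1, 8.76% (Ighv1-9) in mouse 2 and 7.85% (Ighv1-81) in mouse 3. In all 3 IL-33 mice it was Ighv11-2, with 13.8%, 8.63% and 17.7%. In the IL-33+LM8 mice it was Ighv1-64 with 29.8% in mouse 1, Ighv1-81 with 7.18% in mouse 2 and Ighv1-64 with 16.6% in mouse 3. The leading segment was the same in each of the 9 libraries when shares were taken from FPKM, which corrects for segment length. The leading share averaged 8.495 ± 0.559%, 13.4 ± 4.53% and 17.9 ± 11.4% of counts (SD, n = 3) in PBS, IL-33 and IL-33+LM8 mice, and 8.93%, 10.97% and 16.9% of summed FPKM.

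The inverse Simpson index, the number of equally used segments that would give the same concentration, was 30.2, 27.9 and 33.1 in PBS mice, 24.2, 31.2 and 17.6 in IL-33 mice and 9.88, 34.1 and 21.4 in IL-33+LM8 mice. The means were 30.4 ± 2.57, 24.3 ± 6.77 and 21.8 ± 12.1 (SD, n = 3), so the groups overlapped and differed by less than the spread of the IL-33+LM8 mice. Between 8 and 13 segments made up the first 50% of Ighv counts in every library. The 10 most abundant segments held 44.3% to 51.6% in PBS mice, 48.1% to 56.0% in IL-33 mice and 44.9% to 54.8% in IL-33+LM8 mice.

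**Figure D2:**
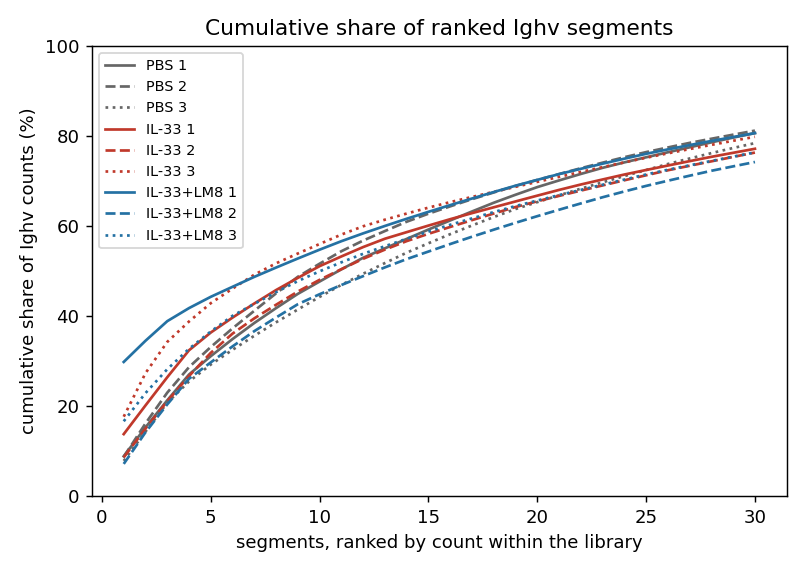
Cumulative share of Ighv counts (vertical axis, percent) against the rank of the segment within its library (horizontal axis), 1 line per mouse, coloured by group. IL-33+LM8 mouse 1 starts at 29.8% on its first segment, IL-33+LM8 mouse 2 at 7.18%, and by the 10th segment the 9 lines lie between 44.3% and 56.0%.

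To ask which segments the rise with IL-33 involved, each was tested in the fit over all genes. Of the 125 segments, 85 passed the filter of a mean FPKM of at least 0.5 and 40 did not. None of the 19 pseudogenes passed. The largest count of a segment below the filter was 50. Of the 85 that passed, 16 had a mean FPKM under 0.5 in PBS mice and so passed through the treated groups, which makes a difference from PBS likely for them by selection. In IL-33 against PBS, 61 of the 85 tested segments rose and 1 fell, while 10.8% of the 16831 genes tested were called higher and 6.24% lower. A call needed an adjusted p under 0.05 (edgeR's quasi-likelihood test, Benjamini-Hochberg over all genes) and a log2 fold change of at least 1 in size. The median log2 fold change was 2.08 over the tested segments and -0.005 over all genes tested. Of the 69 tested segments with a mean FPKM of at least 0.5 in PBS mice, 46 rose and 1 fell (median 1.87). By sign alone, 81 were positive and 4 negative, the negative ones being Ighv5-15, Ighv1-85, Ighv1-82 and Ighv1-36, the last named after its values were seen.

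Ighv11-2 had the highest level in IL-33 mice and the largest share of the rise. Its counts were 29, 4 and 22 with PBS, 3860, 2310 and 4048 with IL-33, and 99, 88 and 112 with IL-33+LM8. The 3 groups did not overlap. On the per-length scale its mean level was 0.57 ± 0.42, 119 ± 38.1 and 2.97 ± 0.43 FPKM (SD, n = 3). The log2 fold change was 7.68 ± 0.51 (SE, adjusted p = 2.11e-05) in IL-33 against PBS and -5.33 ± 0.28 (adjusted p = 5.68e-05) in IL-33+LM8 against IL-33. Between IL-33+LM8 and PBS it was 2.38 ± 0.58 (adjusted p = 0.0213), a call lost when PBS mouse 3 or IL-33+LM8 mouse 2 was left out (highest adjusted p = 0.0559). Of the summed increase from PBS to IL-33 in CPM, 17.2% was Ighv11-2.

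Ighv12-3, the only tested member of its family, followed the same course at lower counts. It had 18, 10 and 11 counts with PBS, 1783, 1143 and 2214 with IL-33, and 16, 53 and 36 with IL-33+LM8. The PBS and IL-33+LM8 mice overlapped, and all lay far below the IL-33 mice. The log2 fold change was 7.18 ± 0.41 (adjusted p = 1.09e-05) in IL-33 against PBS and -5.85 ± 0.48 (adjusted p = 0.000253) in IL-33+LM8 against IL-33. Against PBS the IL-33+LM8 value was 1.35 ± 0.53 and missed the threshold (adjusted p = 0.0982). It made up 8.68% of the summed increase. Without Ighv11-2 and Ighv12-3, a choice made after seeing the data, the summed Ighv level was still 3.49 times higher in IL-33 than in PBS mice.

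Ighv10-3 also rose, unevenly between mice. Its counts were 21, 34 and 24 with PBS, 929, 1497 and 97 with IL-33, and 23, 60 and 30 with IL-33+LM8. IL-33 mouse 3 stood well below the other two, though above every mouse outside its group. The log2 fold change was 5.07 ± 0.92 (adjusted p = 0.00283) with IL-33 and -4.61 ± 0.95 (adjusted p = 0.0106) with LM8 added.

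Among the large Ighv1 family, Ighv1-55 took the next largest part of the increase, 7.38%. Its counts were 375, 75 and 174 with PBS, 1751, 1629 and 1589 with IL-33, and 170, 407 and 413 with IL-33+LM8. The IL-33 mice were close to each other, and the PBS mice were spread over a wide range that the IL-33+LM8 mice overlapped. The log2 fold change was 3.11 ± 0.53 (adjusted p = 0.002) with IL-33 and -2.57 ± 0.28 (adjusted p = 0.000693) with LM8 added. Ighv1-81 had 580, 451 and 552 counts with PBS, 1676, 1708 and 1039 with IL-33, and 333, 513 and 672 with IL-33+LM8. It rose by 1.60 ± 0.17 on the log2 scale (adjusted p = 0.000216), which is less than the median segment, so its share of Ighv counts went from 7.40% to 8.87% in PBS mice to 4.53% to 6.38% in IL-33 mice. Ighv1-26 had 233, 238 and 264 counts with PBS, 1101, 1378 and 707 with IL-33 and 360, 501 and 570 with IL-33+LM8, a log2 rise of 2.24 ± 0.21 with IL-33 (adjusted p = 0.000104). Its share stayed between 3.09% and 7.02% in all 9 libraries.

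By family, the share of segments called differed. Of the 62 Ighv1 members 42 were tested and 24 rose (median log2 fold change 1.66). All 8 tested Ighv2 segments rose (median 3.46), as did all 4 of Ighv3, all 4 of Ighv14, all 3 of Ighv7 and both tested members of Ighv6, Ighv10 and Ighv11. Of Ighv5, 4 of 8 rose and 1 fell, of Ighv9 3 of 4 rose, and of Ighv8 2 of 3 rose. Some of these passed the filter only through the treated groups. Among segments with a mean FPKM of at least 0.5 in PBS mice, 21 of 38 Ighv1, 4 of 4 Ighv2, 3 of 3 Ighv3, 3 of 3 Ighv14, 3 of 7 Ighv5, 1 of 2 Ighv8 and 1 of 1 Ighv7 segments rose. The Ighv15 family, with 2 members, had none above the filter. These family medians rest on segments that share sequence and may share reads.

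Shares of families moved accordingly. Ighv1 held 66.1%, 69.0% and 67.5% of Ighv counts in PBS mice, 46.4%, 51.2% and 42.4% in IL-33 mice and 72.5%, 65.3% and 69.3% in IL-33+LM8 mice. Ighv11 held 0.443%, 0.066% and 0.313% with PBS, 13.9%, 8.79% and 17.9% with IL-33, and 1.29%, 1.23% and 1.04% with IL-33+LM8. Ighv12 held at most 0.275% with PBS, between 4.27% and 9.66% with IL-33, and at most 0.742% with IL-33+LM8. Ighv5 held 9.75% to 10.9% with PBS, 5.31% to 5.94% with IL-33 and 4.16% to 7.11% with IL-33+LM8. The absolute Ighv1 level was still higher with IL-33, at 202 ± 24.9 against 67.3 ± 2.73 CPM (SD, n = 3), and was 83.3 ± 8.92 with IL-33+LM8.

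**Figure D3:**
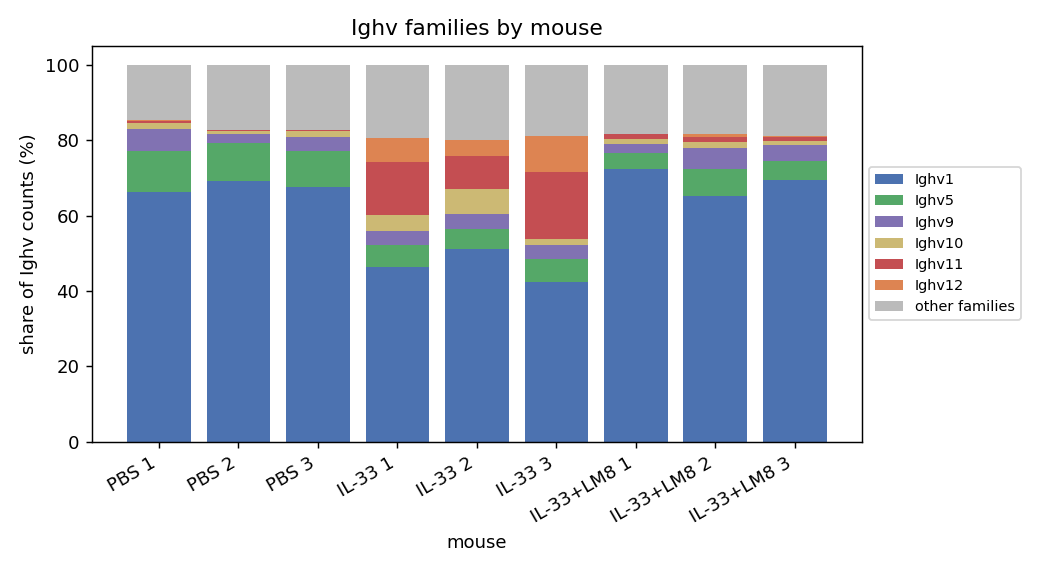
Stacked shares of Ighv counts (percent) by family for each mouse. Ighv11 and Ighv12 together are visible in the 3 IL-33 mice, where Ighv11 holds 8.79% to 17.9%, and Ighv1 is lowest there, at 42.4% to 51.2%.

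Adding LM8 to IL-33 asked whether inhibition of MyD88 changed this response. Of the 85 tested segments, 61 fell and 0 rose in IL-33+LM8 against IL-33, while 3.93% of the 16831 genes tested were called lower and 1.46% higher. No segment was higher at an unadjusted p under 0.05 in edgeR either, and DESeq2 and limma called 0 higher. DESeq2 called 64 lower. The median log2 fold change was -1.81 over the tested segments, which again include the 16 that passed the filter through the treated groups. Signs were negative for 81 and positive for 4, the latter being Ighv1-64, Ighv1-58, Ighv1-66 and Ighv1-5, the last named after its values were seen. Both comparisons use the same IL-33 mice, so their calls are not independent.

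The largest falls by log2 fold change were Ighv2-4, Ighv11-1, Ighv12-3, Ighv11-2 and Ighv7-4. For Ighv2-4 and Ighv11-1, at 0 in every IL-33+LM8 mouse, the IL-33+LM8 level was at least 23.8-fold lower and at least 15.1-fold lower than in IL-33 mice. Without IL-33 mouse 2 the first bound was 10.9. Ighv7-4 fell by 4.98 on the log2 scale (SE 1.08, adjusted p = 0.0133), resting on 5 counts in 1 of the 3 IL-33+LM8 mice. Ighv2-4, Ighv11-1 and Ighv7-4 had a mean of 0 FPKM in PBS mice. They passed the filter through the IL-33 mice (means of 2.83, 1.78 and 1.65 FPKM), which makes a fall from IL-33 likely for them by selection. By family, 26 of 42 tested Ighv1 segments, 7 of 8 Ighv2 segments and 5 of 8 Ighv5 segments fell. Of these tested segments, 4 of Ighv1, 4 of Ighv2 and 1 of Ighv5 had a mean FPKM under 0.5 in PBS mice. The falls were not counted without them.

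IL-33+LM8 mice were also compared with PBS mice, where a difference need not be a remainder of the IL-33 response. Of 83 tested segments 9 rose and 3 fell, while 5.87% of the 16829 genes tested were called higher and 1.46% lower. The median log2 fold change was 0.37. The number of calls rested on few mice: 4 segments were called without PBS mouse 3, 5 without IL-33+LM8 mouse 3 and 7 without IL-33+LM8 mouse 2. These PBS mice are the ones used in IL-33 against PBS.

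Ighv1-64 was the leading segment of 2 of the 3 IL-33+LM8 mice. Its counts were 207, 177 and 197 with PBS, 583, 546 and 484 with IL-33, and 2282, 211 and 1788 with IL-33+LM8. On the CPM scale this was 2.67 to 3.33 with PBS, 8.83 to 9.13 with IL-33, and 38.2, 3.40 and 19.7 with IL-33+LM8. IL-33+LM8 mice 1 and 3 were above every other mouse, whereas IL-33+LM8 mouse 2 was just above the PBS mice and below the IL-33 mice. In IL-33 against PBS the segment rose by 1.60 ± 0.15 on the log2 scale (adjusted p = 9.71e-05), with close values inside both groups. For IL-33+LM8 against PBS the log2 fold change was 2.80 ± 0.74 (adjusted p = 0.0271). That call was lost in 5 of the 6 fits that left out 1 mouse, holding only without IL-33+LM8 mouse 2, and with limma on log2(FPKM + 1). Against IL-33 mice the value was 1.18 ± 0.68 and missed the threshold (adjusted p = 0.253), and it passed without IL-33+LM8 mouse 2. Without Ighv1-64, a choice made after seeing the data, the summed Ighv level of IL-33+LM8 mice was 1.04 ± 0.124 times that of PBS mice.

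Some smaller segments were also above the PBS level in IL-33+LM8 mice. Ighv1-58 had 4, 25 and 14 counts with PBS, 50, 89 and 57 with IL-33, and 48, 158 and 215 with IL-33+LM8, a log2 rise of 3.14 ± 0.69 over PBS (adjusted p = 0.014). Ighv14-4 had 11, 18 and 16 counts with PBS, 103, 115 and 84 with IL-33 and 36, 98 and 97 with IL-33+LM8, a log2 rise of 2.26 ± 0.44 over PBS (adjusted p = 0.00849). Neither overlapped the PBS mice, and both calls held in all 6 fits that left out 1 mouse. Ighv1-66 had 10, 32 and 17 counts with PBS, 51, 78 and 30 with IL-33 and 33, 112 and 131 with IL-33+LM8. Its log2 rise over PBS of 2.09 ± 0.58 (adjusted p = 0.0338) was lost in 4 of those 6 fits, as was its rise with IL-33.

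The 3 segments called lower with IL-33+LM8 than with PBS were Ighv1-39, Ighv1-82 and Ighv5-15. Ighv1-39 had 249, 273 and 332 counts with PBS, 363, 617 and 113 with IL-33, and 41, 62 and 66 with IL-33+LM8. The IL-33 mice straddled the PBS mice, and the IL-33+LM8 mice were below all others. Its log2 fold change from PBS was -2.40 ± 0.23 with IL-33+LM8 (adjusted p = 0.000478) and 0.47 ± 0.49 with IL-33 alone (adjusted p = 0.453). Ighv1-82 had 393, 236 and 451 counts with PBS, 281, 321 and 208 with IL-33, and 118, 102 and 152 with IL-33+LM8. Its value was -1.60 ± 0.25 against PBS (adjusted p = 0.00335) and -1.35 ± 0.21 against IL-33 (adjusted p = 0.003). Both calls, and the Ighv1-39 call, held in all 6 fits that left out 1 mouse. While most segments rose, the share of Ighv1-82 went from 3.87% to 6.42% in PBS mice to 0.908% to 1.20% in IL-33 mice without a call on its level (log2 fold change -0.27 ± 0.24, adjusted p = 0.383).

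Ighv5-15, Ighv1-85 and Ighv5-17 had uneven counts between PBS mice. Ighv5-15 had 136, 24 and 80 counts with PBS, 17, 29 and 15 with IL-33, and 4, 14 and 0 with IL-33+LM8. It was the 1 segment called lower in IL-33 against PBS (log2 fold change -1.84 ± 0.63, adjusted p = 0.0411), a call lost in 5 of 6 fits that left out 1 mouse and not made with the replicate block (adjusted p = 0.133). Its IL-33+LM8 against PBS value of -3.69 ± 1.09 (adjusted p = 0.0404) was a call lost in 4 of those 6 fits. Ighv1-85 had 14, 345 and 210 counts with PBS, 54, 71 and 59 with IL-33, and 16, 28 and 38 with IL-33+LM8. PBS mouse 1 lay below all IL-33 mice and the other PBS mice far above. Its IL-33+LM8 against PBS log2 fold change of -2.89 ± 0.95 missed the threshold (adjusted p = 0.0564), and it passed with the replicate block, that is, with same-numbered mice paired (-2.34, adjusted p = 0.0454). Ighv5-17 had 89, 417 and 230 counts with PBS, 363, 264 and 252 with IL-33, and 73, 119 and 144 with IL-33+LM8. It was called lower in IL-33+LM8 against IL-33 only (-1.62 ± 0.23, adjusted p = 0.00226). Ighv1-9 had 420, 534 and 457 counts with PBS, 835, 907 and 499 with IL-33, and 222, 443 and 487 with IL-33+LM8. Its log2 fold change with IL-33 of 0.78 ± 0.21 (adjusted p = 0.0166) was under the minimum, and its change of -1.19 ± 0.27 with LM8 added (adjusted p = 0.0172) was lost in 4 of 6 fits that left out 1 mouse.

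**Figure D4:**
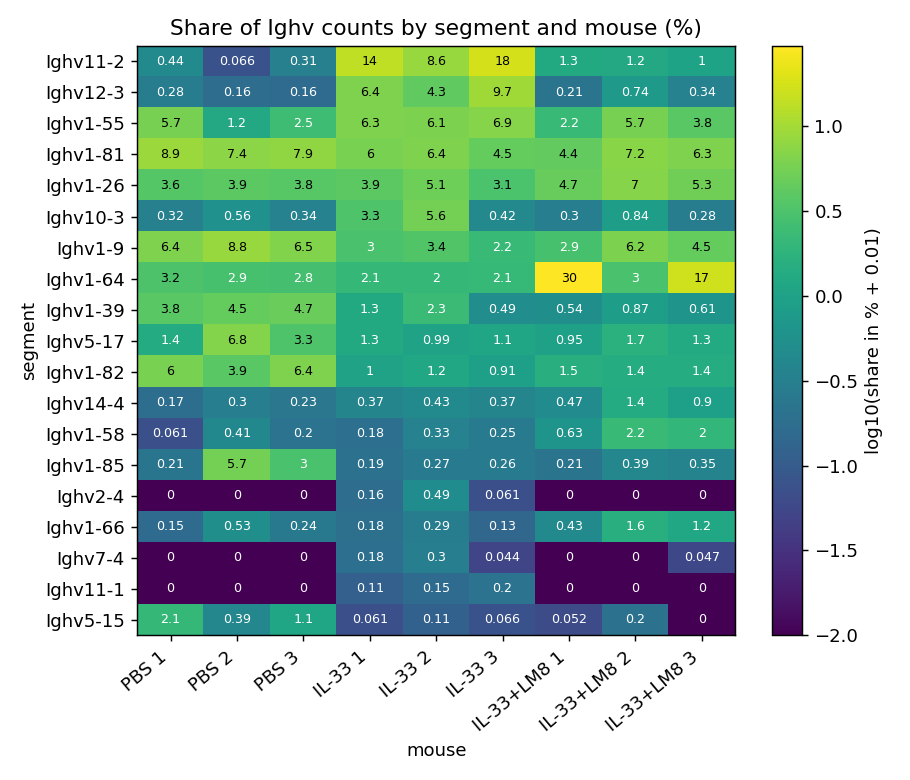
Share of Ighv counts (percent, printed in each cell, colour on a log10 scale) of the 19 named segments in each of the 9 mice. Ighv11-2 and Ighv12-3 stand out in the IL-33 columns, at 8.63% to 17.7% and 4.27% to 9.66%, and Ighv1-64 in IL-33+LM8 mice 1 and 3, at 29.8% and 16.6%.

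The calls were spread along the locus. Members were ranked by position from the D segments and divided into 3 parts of about equal number. In IL-33 against PBS 28 of 33 tested segments nearest the D segments rose (median log2 fold change 2.56), as did 15 of 23 in the middle (1.96) and 18 of 29 farthest away (1.66). Of the 16 segments that passed the filter only through the treated groups, 10 lie in the part nearest the D segments. Without the 16, the calls were 18 of 23 (median 2.10), 14 of 21 (1.78) and 14 of 25 (1.60). The Ighv1 family makes up 0 of 42, 29 of 42 and 33 of 41 members of these parts, so position and family cannot be told apart. Pseudogenes held 0.098% to 0.378% of Ighv counts, with at most 27 counts for a single one.

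**Figure D5:**
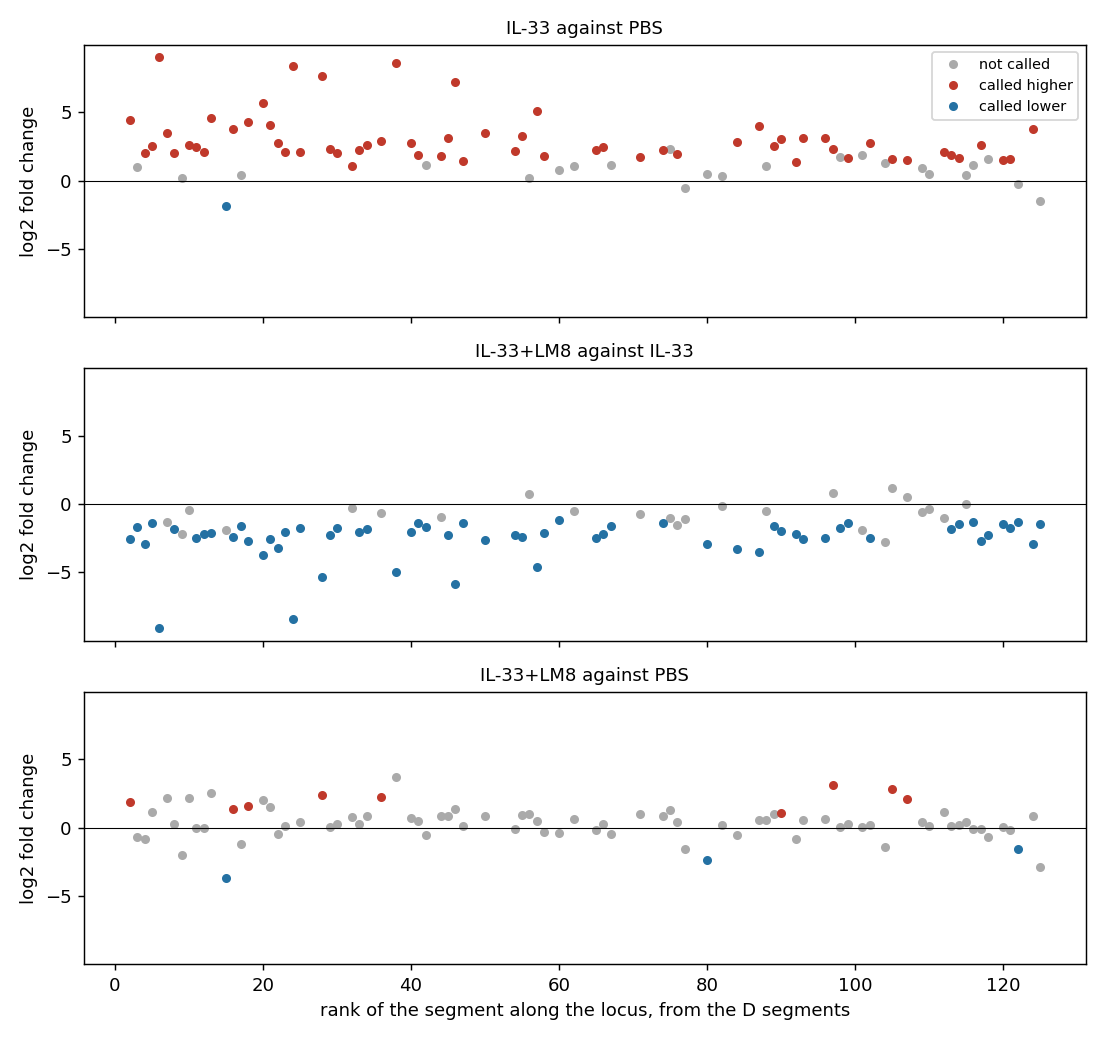
Log2 fold change of each tested segment (vertical axis) against its rank along the heavy chain locus from the D segments (horizontal axis) in the 3 comparisons, coloured by call. Of the tested segments 61 are called higher in the top panel and 61 lower in the middle one, along the whole locus, and 9 higher and 3 lower in the bottom one.

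Mice of 1 group did not share 1 set of shares. The distance between 2 libraries, as the percentage of Ighv counts that would have to move between segments to make their shares equal, was 18.9% to 34.7% within PBS mice, 14.1% to 26.0% within IL-33 mice and 20.6% to 39.2% within IL-33+LM8 mice. It was 36.2% to 49.7% between PBS and IL-33 mice, 31.4% to 45.5% between IL-33 and IL-33+LM8 mice, and 29.1% to 44.2% between PBS and IL-33+LM8 mice. Between PBS and IL-33 mice every distance exceeded those within either group. Distances that involve IL-33+LM8 mice overlapped with the 39.2% reached inside that group. The biological coefficient of variation of the tested segments had a median of 0.404 in IL-33 against PBS, against 0.136 over all genes and 0.299 over genes of similar abundance. For IL-33+LM8 against PBS these were 0.445, 0.144 and 0.340.

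Heavy chain constant regions moved with the variable segments. Their summed level ranged from 338 to 376 CPM in PBS mice, 1895 to 1996 in IL-33 mice and 517 to 532 in IL-33+LM8 mice. Ighm, the constant region of IgM, had 4556, 6599 and 5967 counts with PBS, 85968, 76343 and 73517 with IL-33, and 13209, 13657 and 19261 with IL-33+LM8. The log2 fold change of Ighm was 3.92 ± 0.15 with IL-33 (adjusted p = 2.05e-06) and -2.59 ± 0.06 with LM8 added (adjusted p = 7.86e-06). Ighm made up 21.7% to 28.4% of constant region counts with PBS, 63.9% to 71.7% with IL-33 and 41.2% to 41.6% with IL-33+LM8. Igha, the constant region of IgA, made up 54.6% to 66.6%, 22.9% to 30.2% and 43.7% to 47.8%. Of 7 tested constant regions, 6 rose with IL-33 and 6 fell with LM8 added, against 10.8% and 3.93% of all genes tested. Ighg2c was not called with IL-33 (log2 fold change 0.57, adjusted p = 0.237), and Ighd was not called with LM8 added (-0.26, adjusted p = 0.323). In IL-33+LM8 against PBS 2 were called higher and 1, Ighg2c, lower (-1.63, adjusted p = 0.0173). Ighv counts per 100 constant region counts were 31.1, 26.2 and 28.035 with PBS, 22.4, 22.4 and 22.3 with IL-33, and 24.1, 21.7 and 22.9 with IL-33+LM8.

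Markers of antibody-making cells and of other cells also differed between the groups, and their part in the Ighv values was not tested. Over all genes tested, 10.8% were called higher and 6.24% lower with IL-33, and 1.46% higher and 3.93% lower with LM8 added. In IL-33+LM8 against PBS, 5.87% were called higher and 1.46% lower. All 8 B cell markers rose with IL-33, with a median log2 fold change of 1.86, and 0 were called lower with LM8 added by edgeR or DESeq2 (median -0.82), although all 8 were lower at an adjusted and an unadjusted p under 0.05, short of the minimum fold change. Their summed level was 86.9 to 108 CPM with PBS, 308 to 397 with IL-33 and 188 to 225 with IL-33+LM8, and 5 of 8 were called higher in IL-33+LM8 than in PBS mice. Of 8 plasma cell markers 4 rose with IL-33 (Irf4, Derl3, Jchain and Mzb1) and 2 fell with LM8 added (Jchain and Mzb1). Sdc1, Prdm1, Xbp1 and Tnfrsf17 were not called with IL-33 (log2 fold changes of 0.24, 0.16, 0.25 and 1.27). The sums were 446 to 565, 748 to 780 and 489 to 644. They were mostly Sdc1 and Xbp1, at 145 and 219 CPM in PBS mouse 1, so they say little of the other 6 markers. Of 5 genes of antibody assembly and secretion, which include Jchain and Mzb1 of the plasma cell list, 5 rose with IL-33. Jchain and Mzb1 were the 2 that fell with LM8 added. Pigr went the other way, higher with LM8 added but short of the minimum fold change (log2 fold change 0.44, edgeR adjusted p = 0.0105). Jchain, which joins IgM or IgA into polymers, had 3277, 2753 and 3459 counts with PBS, 10100, 9764 and 8308 with IL-33, and 2714, 3355 and 4228 with IL-33+LM8. Of 6 T cell markers 0 were called in any comparison by edgeR or DESeq2, with sums of 36.6 to 40.03, 53.9 to 56.5 and 39.7 to 56.0 CPM. At an adjusted p under 0.05 in edgeR, short of the minimum fold change, 4 of the 6 were higher with IL-33. By the same measure 1 was lower with LM8 added and 2 were higher in IL-33+LM8 than in PBS mice. At an unadjusted p under 0.05 these numbers were 4, 2 and 2. Of 3 tested lymph node stroma markers 1 rose with IL-33 (Cxcl13) and a different 1 rose with LM8 added (Ccl19, log2 fold change 1.25, edgeR adjusted p = 0.0492). Cxcl13 was not called with LM8 added (-1.09, adjusted p = 0.121). Both were called higher in IL-33+LM8 than in PBS mice. The list summed to 60.3 to 66.3, 69.7 to 87.9 and 67.6 to 73.4 CPM.

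The marker lists of other tissue compartments moved differently. Lung epithelial markers, which check the labelled tissue, summed to 25726 to 27946 CPM with PBS, 11778 to 12680 with IL-33 and 21182 to 22853 with IL-33+LM8, and 2 of 4 fell with IL-33. All 3 erythroid markers fell with IL-33 and rose with LM8 added, with sums of 4400 to 5162, 1409 to 1774 and 6096 to 6943. Of 5 genes of recombination and mutation only Ung was tested, and it rose with IL-33 and fell with LM8 added. Rag1, part of the V(D)J recombinase, had 159, 4 and 122 counts in PBS mice and at most 8 elsewhere, and Rag2 had 36, 4 and 12 counts in PBS mice and 0 elsewhere. Both surrogate light chain genes in the table were below the filter.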

How the data were processed

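RNA-seq of total lung RNA from 9 mice was read from a single table in which the authors deposited a raw read count and an FPKM value for each gene and mouse. Sequencing was paired-end with reads of 150 bases. The submitters' processing notes name Bowtie 0.12.2, HISAT2 2.0, StringTie 1.3.0 and mm10 with no roles; the counting tool and its treatment of shared reads are not given in the sources used here. Gene coordinates in the table differed from GRCm38 (all 125 segments by -36380 bases), so positions and sequences are those of GENCODE M21. Counts from 1 to 10 of the segments were even in 71.7% of cases, against 56.6% for all genes; whether both mates of a read pair were counted is not given in the sources used here. If they were, a floor of 3 counts, the thinned depth and the bounds on folds would stand for fewer fragments than counts.

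The segments and gene lists were chosen with earlier results of these data known. Each comparison was fitted with edgeR 4.0.16 (R 4.3.3, TMM, quasi-likelihood test) on the 6 mice it compares, keeping genes whose FPKM averaged 0.5 or more across the 9 mice and that had a count, and adjusted by Benjamini-Hochberg over all genes. Alternatives were RLE size factors, other filters, DESeq2 1.42.0, limma 3.58.1 on log2(FPKM + 1), no minimum fold change, all 9 mice in one fit, mice of 1 number as a replicate block, and fits without 1 mouse. The fit was tested on simulated data. Segments named are those with at least 5% of Ighv counts in a library, the leading segment of each library, the 3 highest mean shares per group, and the 5 largest called rises and falls per comparison. Standard errors are the log2 fold change over the square root of F. A count of up to 3 was taken as the floor. Each ± value is an SD between mice, an SD of a ratio taken from those, or a standard error of the fit, so all include the spread between mice. The floor covers counting error only, and reads carried no molecular identifiers. Nothing in the labels links mice across groups. Deviations of same-numbered PBS and IL-33+LM8 mice correlated at 0.307, 0.322 and 0.672, and those of the other group pairs differed in sign. Differently numbered mice ranged from -0.471 (PBS mouse 3 with IL-33 mouse 2) to 0.669 (IL-33 mouse 1 with IL-33+LM8 mouse 3). PBS mouse 3 also correlated with IL-33 mouse 1 at 0.647, so PBS mouse 3, IL-33 mouse 1 and IL-33+LM8 mouse 3 deviated together. These values therefore do not establish a pairing by number. Counts of same-group libraries differed beyond sampling noise (chi-square per degree of freedom of 20.4 or more), so each was used as a replicate. P-values test a difference between groups against the spread between these mice, which edgeR estimates for each gene with help from all other genes.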

Additional observations from a re-analysis of the deposited data

How the results depend on the processing

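The number of segments called kept within 1.5 times its value of 62 (IL-33 against PBS) and 61 (IL-33+LM8 against IL-33) under all alternatives except a mean FPKM of at least 5, which left 31 segments to test and called 25 and 28. In IL-33+LM8 against PBS, where 12 were called, 6 were called with no filter on low values and 7 at a mean FPKM of at least 5. Leaving out 1 mouse gave 51 to 64, 45 to 61 and 4 to 11 calls in the 3 comparisons, the lowest of the last without PBS mouse 3. With the replicate block the counts were 59, 54 and 13. For IL-33+LM8 against PBS, the paired fit added Ighv1-85 and changed no other call. Same-numbered mice correlated there at 0.307, 0.322 and 0.672, but so did PBS mouse 1 with IL-33+LM8 mouse 2 (0.198) and PBS mouse 2 with IL-33+LM8 mouse 1 (0.169). In the other 2 comparisons, same-numbered mice correlated between -0.419 and 0.28 and between -0.397 and 0.222, so the numbers do not pair them; Ighv5-15 and Ighv7-4 were the named segments whose calls the block removed there.

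The ratio of summed Ighv CPM in IL-33 against PBS was 4.24 to 4.46 with 1 mouse left out and 3.49 without Ighv11-2 and Ighv12-3. For IL-33+LM8 against IL-33 it was 0.270 to 0.285 with 1 mouse left out, 0.343 without Ighv11-2 and Ighv12-3 and 0.237 without Ighv1-64. For IL-33+LM8 against PBS it was 1.17 to 1.24 with 1 mouse left out, 1.08 without the leading segment of each library and 1.04 without Ighv1-64. With 1 mouse left out, the mean inverse Simpson index was 29.1 to 31.6 with PBS, 20.9 to 27.7 with IL-33 and 15.7 to 27.8 with IL-33+LM8. The mean leading share was 8.31% to 8.82%, 11.2% to 15.7% and 11.9% to 23.2%, and the mean number detected at equal depth was 88.5 to 91.0, 99.995 to 103 and 92.7 to 97.1. Counting only segments with at least 4 reads in the full library gave 84.7 for PBS mice. Of 692 values of single named segments under an alternative, 3 changed sign: Ighv1-39 in IL-33 against PBS (-0.16 without IL-33 mouse 2, up to 0.89 with another mouse left out), Ighv5-17 in the same comparison (-0.014 without PBS mouse 1, up to 1.09) and Ighv10-3 in IL-33+LM8 against PBS (-0.16 without IL-33+LM8 mouse 2, up to 0.78), none of which was a call in the reported fit. A further 42 lost and 11 gained a call, and the cause was not tested. The limits are 3 mice per group, the unknown treatment of reads shared between segments, and low PBS counts behind the largest folds.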

Other observations

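Other joined parts of antibody genes, chosen after their values were seen, differed between the groups as follows. Ighj1, the J segment nearest the D segments, had 55, 106 and 94 counts in PBS mice, 619, 653 and 704 in IL-33 mice and 108, 148 and 136 in IL-33+LM8 mice. Its log2 fold change was 3.11 ± 0.27 with IL-33 (edgeR adjusted p = 7.59e-05) and -2.55 ± 0.23 with LM8 added (adjusted p = 0.00034). Ighj2, Ighj3 and Ighj4 rose by 2.49, 1.78 and 1.57 on the log2 scale. The kappa segment Igkv14-126, a known partner of Ighv11 segments in B-1a cells, had 90, 228 and 135 counts with PBS, 6572, 4306 and 7638 with IL-33 and 155, 183 and 267 with IL-33+LM8. Its IL-33 mice were all far above the others, and its log2 fold change was 5.50 ± 0.42 (adjusted p = 3.98e-05) with IL-33 and -5.20 ± 0.27 (adjusted p = 5.5e-05) with LM8 added. Igkv4-91, a known partner of Ighv12 segments, had 53, 76 and 149 counts with PBS, 3393, 2159 and 3781 with IL-33 and 110, 197 and 194 with IL-33+LM8. Its log2 fold change was 5.25 ± 0.38 (adjusted p = 3.23e-05) and -4.46 ± 0.32 (adjusted p = 0.000165). Neither kappa segment was called in IL-33+LM8 against PBS (adjusted p = 0.553 and 0.14). The calls of the other kappa segments were not counted here, so these values are not set against a general change of light chain segments.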
